A study of Rattus norvegicus with 30 samples.

Results

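The type I interferon response genes are genes whose RNA rises in cells that receive a type I interferon signal, and 48 of them, chosen by name with the chemokines left out, were followed here in rat lung. A probe matched 44 of the 48 by its accession, and 43 passed the filter on dim probes, among 18410 genes tested. The probe of Ifit1, an RNA-binding antiviral protein, was well above background on 0 of 30 arrays, and Herc6, Xaf1, Zbp1 and Samhd1 were not analysed here. Lung RNA of 30 adult male Wistar rats (outbred strain HsdCpb:WU, 8 weeks old when obtained) was hybridised to 2-colour arrays, 1 array per rat. The rats breathed copper oxide (CuO) nanoparticles through the nose on 5 consecutive days at 3.3 mg/m3 (low dose) or 13.2 mg/m3 (high dose), or air alone, and their lungs were taken on day 6 or on day 28, which were 1 day and 22 days after the last exposure. Each of the 6 groups held 5 rats. The rats at dose 0 carry the nanoparticle treatment label too, and they were taken as air controls because the protocols state that controls breathed air. The reference in the second channel is called universal rat reference RNA in the sample label and mouse reference RNA in the labelling protocol, and being common to the arrays it drops out of every difference below.

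Type I interferons are released by cells that sense viral or misplaced nucleic acid. They bind a receptor shared by almost all cell types, whose kinases activate a transcription factor complex that includes STAT2 and IRF9 and binds the interferon-stimulated response element (ISRE) in the promoters of target genes. The targets degrade RNA, trap viral proteins, present antigen and, through USP18 and SOCS1, switch the signal off. Type II interferon acts through a different element, the gamma-activated site (GAS), and shares many of the same targets. In the lung, macrophages, epithelium and recruited leukocytes can all carry the response.

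The promoters of several members are shown because they hold the element that the pathway acts through. RefSeq (assembly GRCr8) gave the 250 bases before the start of 36 of the 43 measured members. No entry was found for Usp18, Isg15, Ifit2, Mx2, Oas2, Dhx58 and Ifi27l2b. Both strands were searched for the ISRE core GAAANNGAAA, which reads TTTCNNTTTC when it lies on the opposite strand, and for the palindromic GAS core TTCNNNGAA. Each sequence runs 5′ to 3′ in the direction of its gene, and capitals mark the fixed letters of the element.
Rsad2 (chr6:48788228-48788297, minus strand): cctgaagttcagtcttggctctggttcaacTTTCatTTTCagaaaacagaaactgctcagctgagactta
Ifit3 (chr1:241527252-241527321, plus strand): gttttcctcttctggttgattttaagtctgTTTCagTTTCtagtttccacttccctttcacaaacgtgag
Irf7 (chr1:205800053-205800122, minus strand): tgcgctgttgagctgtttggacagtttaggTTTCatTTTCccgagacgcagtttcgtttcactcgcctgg
Ifi27 (chr6:128355113-128355267, plus strand): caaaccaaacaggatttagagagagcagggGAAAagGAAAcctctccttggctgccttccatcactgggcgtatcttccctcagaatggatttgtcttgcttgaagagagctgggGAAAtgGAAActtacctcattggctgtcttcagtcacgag
Gbp2 (chr2:234005666-234005726, plus strand): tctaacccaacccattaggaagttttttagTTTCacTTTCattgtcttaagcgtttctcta
Tap1 (chr20:4668625-4668694, minus strand): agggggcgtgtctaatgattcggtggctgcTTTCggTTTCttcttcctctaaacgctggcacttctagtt
Igtp (chr10:42874914-42874983, plus strand): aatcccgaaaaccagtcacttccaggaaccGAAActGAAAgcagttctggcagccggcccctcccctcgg
Oas1a and Oas1b are copies of an oligoadenylate synthetase gene with 2 genes between them. They are set side by side because both hold overlapping ISRE cores while Oas1a passed the test at the high dose and Oas1b did not.
Oas1a (chr12:41330395-41330465, plus strand): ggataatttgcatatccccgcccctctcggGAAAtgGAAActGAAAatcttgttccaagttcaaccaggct
Oas1b (chr12:41395866-41395941, minus strand): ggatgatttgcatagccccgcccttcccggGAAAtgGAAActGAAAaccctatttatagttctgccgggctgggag
For the transcription factor genes Irf1, Irf8 and Irf9, whose windows hold the GAS core and no ISRE core, the GAS letters are in capitals.
Irf1 (chr10:38417763-38417831, plus strand): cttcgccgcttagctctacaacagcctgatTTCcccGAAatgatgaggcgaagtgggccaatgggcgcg
Irf8 (chr19:65699074-65699161, plus strand): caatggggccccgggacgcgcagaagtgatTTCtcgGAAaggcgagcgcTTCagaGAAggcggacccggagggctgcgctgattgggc
Irf9 (chr15:33065707-33065775, plus strand): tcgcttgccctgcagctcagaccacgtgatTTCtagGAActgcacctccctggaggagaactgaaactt

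The ISRE core lay in 24 of the 36 promoters, or 66.7%, compared with 3.41% of all 33469 promoters of the same length. Its 29 matches began at positions -169 to -16 counted back from the start, and in Oas1a, Oas1b, Socs1 and Bst2 a pair of cores overlapped. The GAS core lay in 11 of the 36 (30.6%, against 7.67% of all promoters), and 8 of those 11 held the ISRE core as well. Neither core was in the windows of Mx1, Oasl, Stat2, Ifi35, Slfn4, Parp9, Dtx3l, Trim25 and Cmpk2. Members were listed by name as interferon targets, so that the element is frequent among them is a description of the list. Genes with and without the core moved. The median log2 change at the high dose on day 6 was 1.29 in the 24 genes with the ISRE core and 0.95 in the 12 without it. Of these, 19 and 11 passed the test as higher, where 21% of all genes were higher. The 7 members without an entry are in neither group, and their changes ran from 1.07 for Oas2 to 4.35 for Ifi27l2b. Slfn4 and Mx1, without the core, were among the most raised, and Oas1b, Tap2, Bst2, Igtp and Ifitm3, with it, did not pass at the probe used. A second probe of Igtp did pass (1.43, adjusted p = 0.000155).

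**Figure D1:**
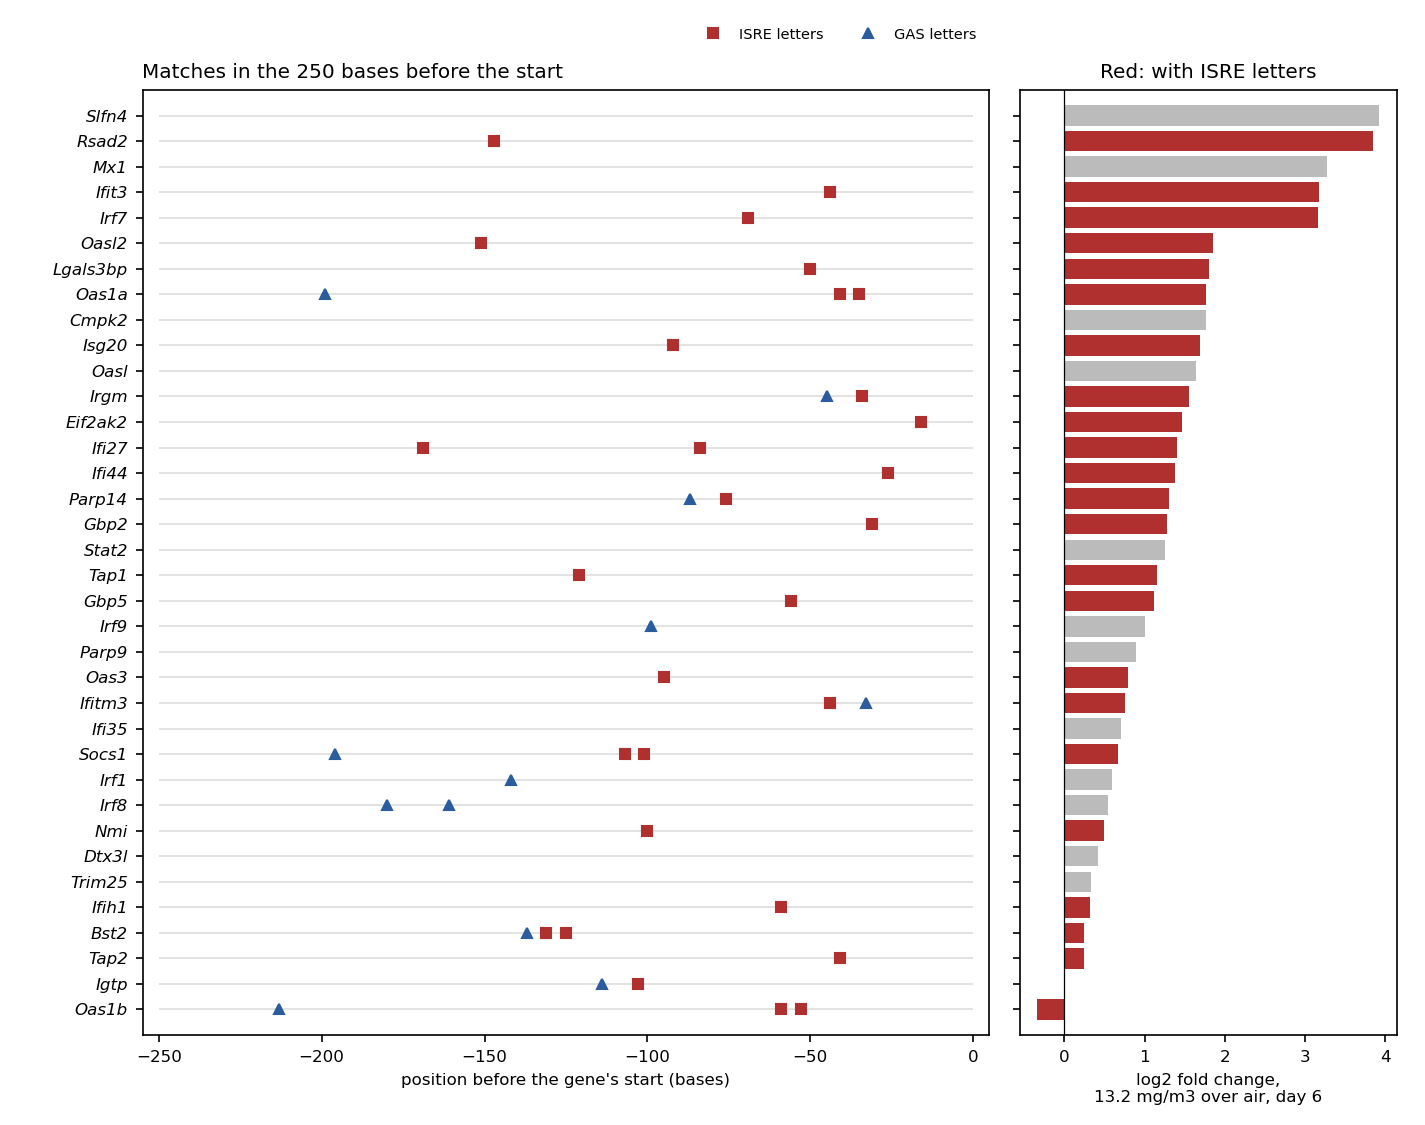
Positions of the ISRE core (squares) and GAS core (triangles) in the 250 bases before the start of the 36 measured members with a promoter entry, with the log2 fold change at 13.2 mg/m3 over air on day 6 as bars (red where the ISRE core is present). Genes with and without the ISRE core appear from the top (Slfn4, 3.93) to the bottom (Oas1b, -0.34) of the order.

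The arrays held 62976 spots, of which 4259 were controls, and 59.5% to 68.4% of probes stood well above background in the lung channel, whose median intensity was 216 to 432. All 8 lung markers, among them the surfactant genes Sftpc and Sftpb, were measured, and 2 of them, Pdpn (-0.63 ± 0.13) and Pecam1 (-0.42 ± 0.15), were lower at the high dose on day 6 (adjusted p = 0.000265 and 0.0301). Heart muscle genes, 8 markers, had a mean log2 ratio of 4.38 in air rat 4 of day 6, where the group's lowest rat had -0.91, of 2.10 in low dose rat 49 of day 6 and of 1.31 in rats 54 and 83 of day 28. These rats were the highest of their groups, and others were not free of the signal. On day 6 Myh6 was well above background in 3 air, 5 low dose and 0 high dose rats. On day 28 it was so in 1, 1 and 2. Dropping air rat 4 left 37 members raised by the high dose, dropping rat 49 left 4 raised by the low dose, and dropping rat 54 or rat 83 left 0 called on day 28, where 0 were called with all rats. Values below are log2 ratios of lung Cy5 over reference Cy3, so a level of one gene is not compared with that of another, and differences between groups are log2 fold changes ± SE from limma with 5 rats per group and Benjamini-Hochberg adjustment over all 18410 genes. Since whole lung was used, a change in RNA per cell and a change in the number of cells that carry it cannot be told apart.

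On day 6 the high dose raised 37 of the 43 members and lowered 0 of them, with a median log2 change of 1.28. Over all genes 21% were higher and 15.5% lower, and the median change was 0.01. Every high dose rat lay above every air rat for 35 members, against 16.8% of all genes. Of the calls over all genes 57.6% were higher, a share that came to 49.1% with Agilent's processed signals, 46% with the authors' deposited log2 ratios, 47.6% with Cy5 alone and 43.5% with median centring. Within each of the 4 slides all 37 raised members were higher in the high dose rats, and the members' median difference was 1.25 to 1.37.

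**Figure D2:**
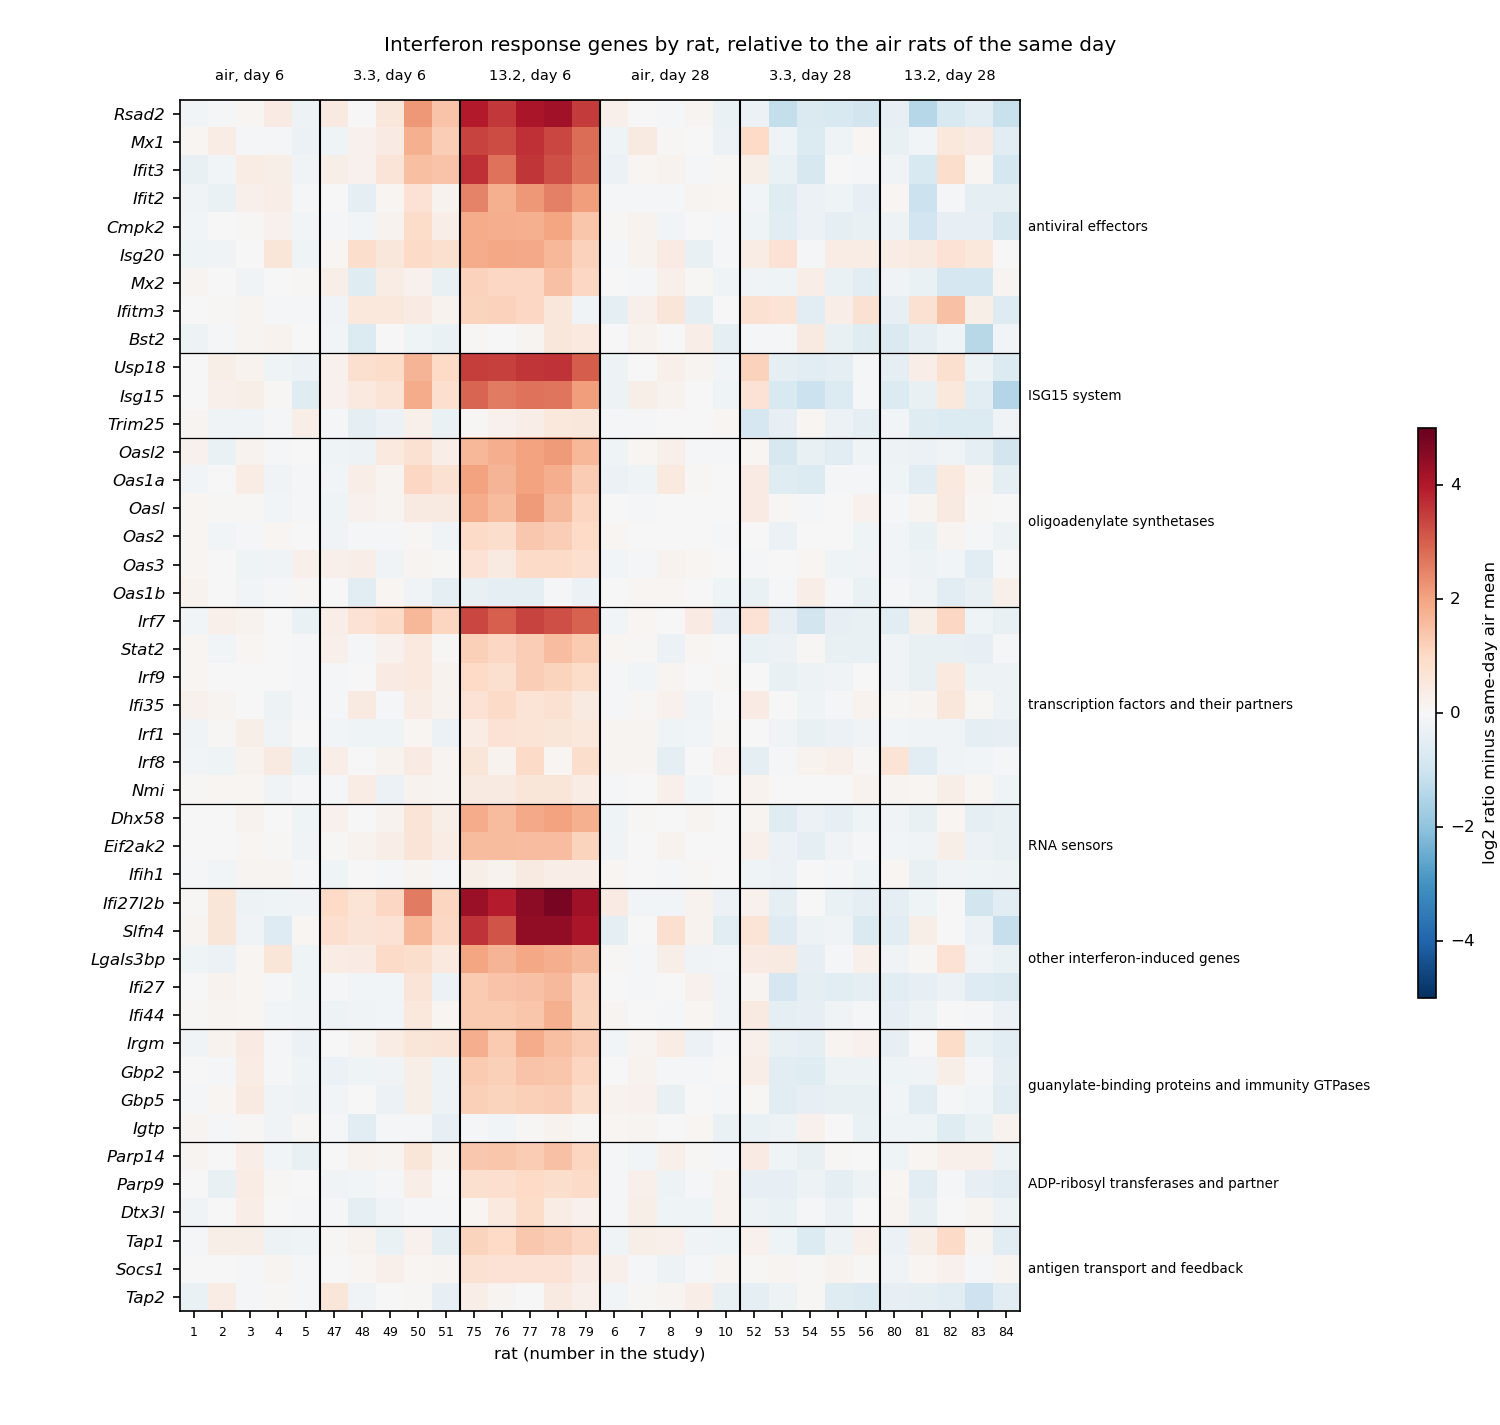
Log2 ratio of each of the 43 members in each of the 30 rats minus the mean of the 5 air rats of the same day, arranged by role (rows) and group (columns, doses in mg/m3), with red above and blue below the air mean. The 5 high dose rats of day 6 form the red block, rat 50 is the reddest of the low dose rats, and among the exposed rats of day 28 rats 52 and 82 have medians of 0.12 and 0.02 while the other 8 lie at -0.38 to -0.19.

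Antiviral effectors made up 9 of the measured members and 7 of them rose at the high dose on day 6, by a median of 1.77 over the 9. Rsad2 (viperin), which turns CTP into a nucleotide that stops viral RNA chains, read 2.70, 2.73, 2.91, 3.22 and 2.57 in air rats, 3.26, 2.79, 3.38, 4.98 and 4.27 in low dose rats and 6.81, 6.36, 6.89, 7.01 and 6.31 in high dose rats. The high dose values lie above all others by more than 1 unit, and rats 50 and 51 stand above the remaining low dose rats. Rsad2 rose 14.4-fold (3.85 ± 0.27, adjusted p = 1.21e-11). Its neighbour on chromosome 6, Cmpk2, a mitochondrial nucleotide kinase that makes the substrate of viperin, rose by 1.77 ± 0.15 (adjusted p = 3.91e-10). Mx1, a dynamin-like GTPase that blocks viral nucleocapsids, read 2.83, 3.11, 2.64, 2.61 and 2.44 in air rats, 2.50, 2.94, 3.15, 4.51 and 3.96 in low dose rats and 6.12, 6.00, 6.38, 6.05 and 5.50 in high dose rats. It rose 9.74-fold (3.28 ± 0.30, adjusted p = 1.15e-09), and its relative Mx2 rose by 1.14 ± 0.19 (adjusted p = 1.87e-05). Ifit3, part of a complex that binds foreign RNA ends, read 1.40, 1.63, 2.12, 2.05 and 1.57 in air rats, 2.05, 1.98, 2.40, 3.27 and 3.18 in low dose rats and 5.41, 4.46, 5.31, 4.99 and 4.50 in high dose rats. High dose rats did not overlap the air rats for either gene, and the highest low dose values of both again came from rats 50 and 51. Ifit3 rose by 3.18 ± 0.29 (adjusted p = 9.85e-10), its neighbour Ifit2 by 2.22 ± 0.19 (adjusted p = 3.91e-10), and the exonuclease Isg20 by 1.69 ± 0.19 (adjusted p = 5.49e-08). The membrane protein Ifitm3, which hinders virus entry, was 0.75 ± 0.31, adjusted p = 0.0614, with high dose rats at 0.23, 0.28, 0.16, -0.31 and -1.05 and air rats at -0.92, -0.83, -0.73, -0.95 and -1.0. Rat 79 lay below every air rat while the other 4 lay above them. Bst2 (tetherin), which holds budding virus at the cell surface, was 0.25 ± 0.20, adjusted p = 0.357.

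The ISG15 system adds a ubiquitin-like tag to proteins. Isg15, the tag itself, read 2.62, 2.90, 2.96, 2.72 and 2.04 in air rats, 2.88, 3.14, 3.33, 4.52 and 3.49 in low dose rats and 5.56, 5.26, 5.35, 5.34 and 4.72 in high dose rats. Usp18, which removes the tag and also blocks the interferon receptor, read -0.10, 0.16, 0.05, -0.32 and -0.40 in air rats, 0.09, 0.68, 0.81, 1.58 and 0.86 in low dose rats and 3.33, 3.29, 3.45, 3.51 and 2.91 in high dose rats. Air and high dose rats were separated for both genes, and the lowest high dose value of each came from rat 79. Isg15 rose 6.04-fold (2.59 ± 0.32, adjusted p = 2.09e-07) and Usp18 10.7-fold (3.42 ± 0.28, adjusted p = 1.52e-10), with 2.79 at a second Usp18 probe. Trim25, a ligase that acts on the sensor RIG-I, was 0.33 ± 0.15, adjusted p = 0.0863.

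Oligoadenylate synthetases make the messenger that activates RNase L, and 5 of the 6 measured rose at the high dose. Oas1a read 2.13, 2.26, 2.63, 2.08 and 2.15 in air rats, 2.12, 2.58, 2.38, 3.28 and 3.0 in low dose rats and 4.27, 3.96, 4.28, 4.08 and 3.50 in high dose rats. Oas1b read 1.74, 1.53, 1.42, 1.49 and 1.64 in air rats, 1.54, 1.02, 1.66, 1.40 and 1.11 in low dose rats and 1.18, 1.12, 1.10, 1.46 and 1.28 in high dose rats. In the first gene every high dose rat lay above every air rat, and in the second the high dose rats were among the lower values with 1 of them inside the air range. Oas1a rose by 1.77 ± 0.23 (adjusted p = 5.11e-07) while Oas1b was -0.34 ± 0.14 (adjusted p = 0.0567). Both lie in a run of close copies on chromosome 12 whose RNA may bind each other's probes, so the split between the copies is uncertain. With the authors' deposited log2 ratios, with slide as a block, and with the compared groups alone in the fit, Oas1b passed as lower, at -0.43, -0.34 and -0.34. Oas2 rose by 1.07 ± 0.09, Oas3 by 0.79 ± 0.12, Oasl by 1.64 ± 0.14 and Oasl2 by 1.85 ± 0.18 (adjusted p = 2.29e-10, 4.05e-06, 3.02e-10 and 3.62e-09). Oas3 and Oasl were dim, each well above background in 1 of the 5 air rats of day 6, so those folds are set against values mostly not well above background, and Oasl was well above background in 0 of the 5 air rats of day 28. With Agilent's processed signals the changes were larger, at 1.90 for Oas2, 2.56 for Oas3 and 3.28 for Oasl.

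All 7 transcription factors and partners rose at the high dose on day 6, by 0.50 to 3.17. Irf7, which drives the further making of interferon, read 0.76, 1.14, 1.05, 0.90 and 0.54 in air rats, 1.22, 1.61, 1.83, 2.55 and 1.95 in low dose rats and 4.23, 3.87, 4.24, 4.10 and 3.81 in high dose rats. Stat2 read 0.97, 0.77, 0.97, 0.89 and 0.84 in air rats, 1.13, 0.79, 1.11, 1.37 and 0.93 in low dose rats and 2.08, 1.93, 2.12, 2.43 and 2.20 in high dose rats. Irf9, the DNA-binding partner of STAT2, read 1.39, 1.28, 1.25, 1.32 and 1.19 in air rats, 1.18, 1.32, 1.70, 1.76 and 1.47 in low dose rats and 2.27, 2.08, 2.53, 2.38 and 2.22 in high dose rats. For each of these genes high dose and air rats did not overlap, and for Irf7 the low dose rats also lay above all air rats. Irf7 rose 8.99-fold (3.17 ± 0.27, adjusted p = 3.02e-10), Stat2 by 1.26 ± 0.11 (adjusted p = 2.85e-10) and Irf9 by 1.01 ± 0.13 (adjusted p = 3.32e-07). Irf1, a fast target of type II interferon, read 1.23, 1.44, 1.69, 1.22 and 1.38 in air rats, 1.26, 1.18, 1.19, 1.48 and 1.10 in low dose rats and 1.78, 2.11, 2.08, 2.01 and 1.93 in high dose rats. Its low dose rats lay inside or below the air range, and its rise at the high dose was 1.5-fold (0.59 ± 0.10, adjusted p = 3.14e-05), with 0.72 at a second probe. Irf8, a factor of myeloid cells, rose by 0.54 ± 0.20 (adjusted p = 0.0304) with overlapping groups. Its call was lost with the authors' deposited log2 ratios and without high dose rats 75, 77 or 79 or air rats 1, 2 or 5 (adjusted p up to 0.0995). The STAT-binding protein Nmi and its partner Ifi35 rose by 0.50 ± 0.10 and 0.71 ± 0.13 (adjusted p = 0.000342 and 0.000126). Nmi did not pass with median centring (adjusted p = 0.125).

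Sensors of double-stranded RNA rose in 3 of 3 cases. Dhx58 (LGP2) rose by 1.82 ± 0.12 and the kinase Eif2ak2 (PKR), which halts translation, by 1.47 ± 0.13 (adjusted p = 3.8e-12 and 6.3e-10). Ifih1 (MDA5) rose by 0.32 ± 0.08 (adjusted p = 0.00217), among the smaller changes in the list.

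The 2 members with the largest change at the high dose belonged to none of these classes. Ifi27l2b, a small membrane protein gene next to Ifi27 on chromosome 6, read 0.19, 0.72, -0.13, -0.09 and -0.03 in air rats, 1.13, 0.83, 1.17, 2.72 and 1.20 in low dose rats and 4.45, 4.07, 4.59, 4.89 and 4.38 in high dose rats. Slfn4, a Schlafen gene of myeloid cells, read -1.99, -1.54, -2.32, -2.80 and -2.03 in air rats, -1.31, -1.48, -1.40, -0.49 and -1.09 in low dose rats and 1.47, 0.99, 2.28, 2.28 and 1.93 in high dose rats. Both separated high dose from air rats by more than 2 units, and in both every low dose rat lay above every air rat. At the high dose Ifi27l2b rose 20.3-fold (4.35 ± 0.25, adjusted p = 1.99e-13) and Slfn4 15.2-fold (3.93 ± 0.31, adjusted p = 7.43e-11), with 3.63 and 3.30 at their second probes. Ifi27 rose by 1.40 ± 0.15, Ifi44 by 1.38 ± 0.15 and the secreted glycoprotein Lgals3bp by 1.80 ± 0.18 (adjusted p = 1.83e-08, 2.28e-08 and 1.06e-08).

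Guanylate-binding proteins and immunity-related GTPases attack the vacuoles of intracellular microbes, and they respond strongly to type II interferon. Gbp2 read 1.83, 1.77, 2.24, 1.79 and 1.63 in air rats, 1.55, 1.65, 1.67, 2.16 and 1.59 in low dose rats and 3.16, 3.05, 3.28, 3.23 and 2.94 in high dose rats. High dose rats were separate from the rest, and the low dose rats, apart from rat 50, lay below the air median. Gbp2 rose by 1.28 ± 0.15, Gbp5 by 1.12 ± 0.14 (0.44 at a second probe) and Irgm by 1.55 ± 0.21 (adjusted p = 9.54e-08, 4.1e-07 and 1.76e-06). Igtp gave 0.01 ± 0.13, adjusted p = 0.969 at its brighter probe but 1.43 (adjusted p = 0.000155) at a second probe, so its direction was not settled by the array.

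In the ADP-ribosyl transferase cluster on chromosome 11, Parp14 rose by 1.30 ± 0.14, Parp9 by 0.89 ± 0.13 and Dtx3l, the ubiquitin ligase partner of PARP9 whose gene lies between them, by 0.42 ± 0.14 (adjusted p = 2.91e-08, 2.69e-06 and 0.0169). Dtx3l did not pass with Agilent's processed signals, with median centring, with the authors' deposited log2 ratios or without high dose rat 77. Tap1, 1 of the 2 subunits of the pump that loads peptides onto MHC class I, read 0.29, 0.68, 0.70, 0.16 and 0.17 in air rats, 0.44, 0.59, 0.06, 0.60 and -0.03 in low dose rats and 1.53, 1.39, 1.74, 1.64 and 1.43 in high dose rats. It rose by 1.15 ± 0.21 (adjusted p = 8.25e-05), whereas the other subunit, Tap2, was 0.24 ± 0.17, adjusted p = 0.28, with air rats at -0.29, 0.40, 0.00, 0.11 and -0.02 and high dose rats at 0.38, 0.18, 0.03, 0.49 and 0.31. Socs1, a feedback inhibitor of the receptor kinases, read -0.11, -0.07, -0.19, 0.05 and -0.14 in air rats, -0.07, 0.01, 0.16, -0.01 and 0.06 in low dose rats and 0.67, 0.64, 0.63, 0.63 and 0.32 in high dose rats. It rose 1.59-fold (0.67 ± 0.09, adjusted p = 7.39e-07), and the low dose rats overlapped the air rats. With Agilent's processed signals the change of Socs1 was 1.5.

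**Figure D3:**
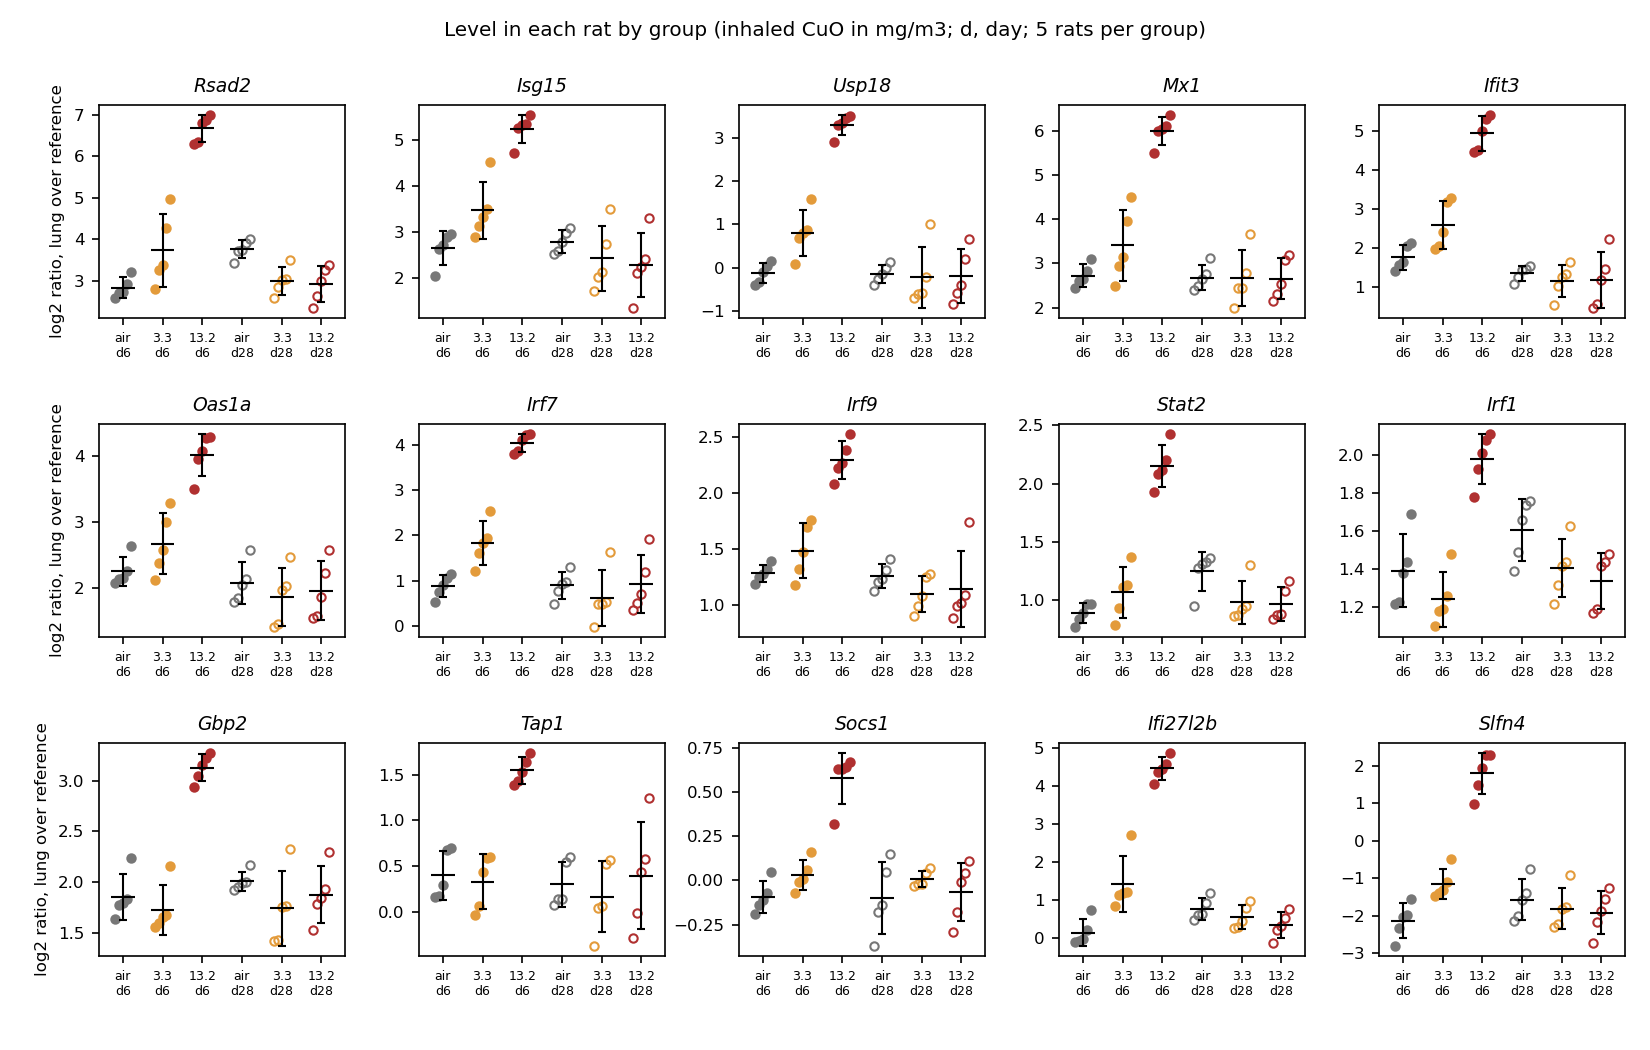
Log2 ratio of lung over reference in each rat for 15 members chosen by role (points, 5 rats per group, filled on day 6 and open on day 28), with the group mean and SD as bars, by inhaled dose in mg/m3. High dose rats of day 6 sit above all air rats of that day in every panel, while Rsad2, Isg15 and Mx1 spread widely among low dose rats.

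At the low dose on day 6, 6 members rose and 0 fell, with a median of 0.18 over the 43, against 4.97% higher and 1.75% lower over all genes. The 6 were Ifi27l2b (1.28 ± 0.25, adjusted p = 0.00121), Irf7 (0.95 ± 0.27, adjusted p = 0.0268), Usp18 (0.93 ± 0.28, adjusted p = 0.0402), Rsad2 (0.91 ± 0.27, adjusted p = 0.0432), Isg20 (0.66 ± 0.19, adjusted p = 0.0317) and Lgals3bp (0.62 ± 0.18, adjusted p = 0.04). Slfn4 came next (0.99 ± 0.31, adjusted p = 0.0501), followed by Ifit3 (0.83 ± 0.29, adjusted p = 0.0819) and Isg15 (0.82 ± 0.32, adjusted p = 0.121). Every low dose rat lay above every air rat for Ifi27l2b, Irf7 and Slfn4, a separation seen in 5.36% of all genes. In contrast the medians of the guanylate-binding group and of the ADP-ribosyl transferase group were -0.10 and -0.01.

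Most of the low dose calls depended on single rats. Rat 50 had the highest value of its group for 31 of the 43 members, and its median over the members was 0.47 above the air mean where the other 4 rats had -0.04 to 0.16. Without rat 50 the call of Ifi27l2b was left and the members' median was 0.12. Leaving out air rat 1, air rat 5 or low dose rat 51 also left the call of Ifi27l2b alone, leaving out air rat 3 left Irf7 and Ifi27l2b, and leaving out low dose rat 47 gave 7 calls. Within slides the median low dose difference was -0.01 to 0.40, highest on the slide that held rat 50. With median centring the call of Ifi27l2b alone passed, and with no filter on dim probes 3 passed. Of 21 recomputations, counting rats left out, the call was lost in 15 for Usp18, 12 for Rsad2 and 11 for Lgals3bp. For Isg20 it was lost in 9, for Irf7 in 5 and for Ifi27l2b in 0. At second probes Ifi27l2b passed (1.26, adjusted p = 0.00129), while Usp18 (0.67, adjusted p = 0.0754) and Slfn4 (0.65, adjusted p = 0.182) did not.

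From the low to the high dose 37 members rose and 0 fell, by a median of 1.16, against 8.02% higher and 3.86% lower over all genes. Every high dose rat lay above every low dose rat for 36 members (5.87% of all genes). Among the panel the step between the doses was largest for Ifi27l2b (3.07 ± 0.25), Rsad2 (2.94 ± 0.27), Slfn4 (2.94 ± 0.31), Mx1 (2.60 ± 0.30) and Usp18 (2.49 ± 0.28). Trim25, which did not pass against air, was higher than at the low dose (0.51 ± 0.15, adjusted p = 0.0244), a call lost with median centring and without low dose rats 48, 49 or 51 or high dose rats 77, 78 or 79 (adjusted p up to 0.141). Irf8, which passed against air, was not called here (0.34 ± 0.20, adjusted p = 0.306). Oas1b, Bst2, Igtp, Tap2 and Ifitm3 passed in neither comparison. Some members with a large high dose change were near the air rats at the low dose, such as Ifit2 (0.11 at the low and 2.22 at the high dose), Ifi44 (0.01 and 1.38) and Gbp2 (-0.13 and 1.28). Both changes are taken from the same air rats.

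**Figure D4:**
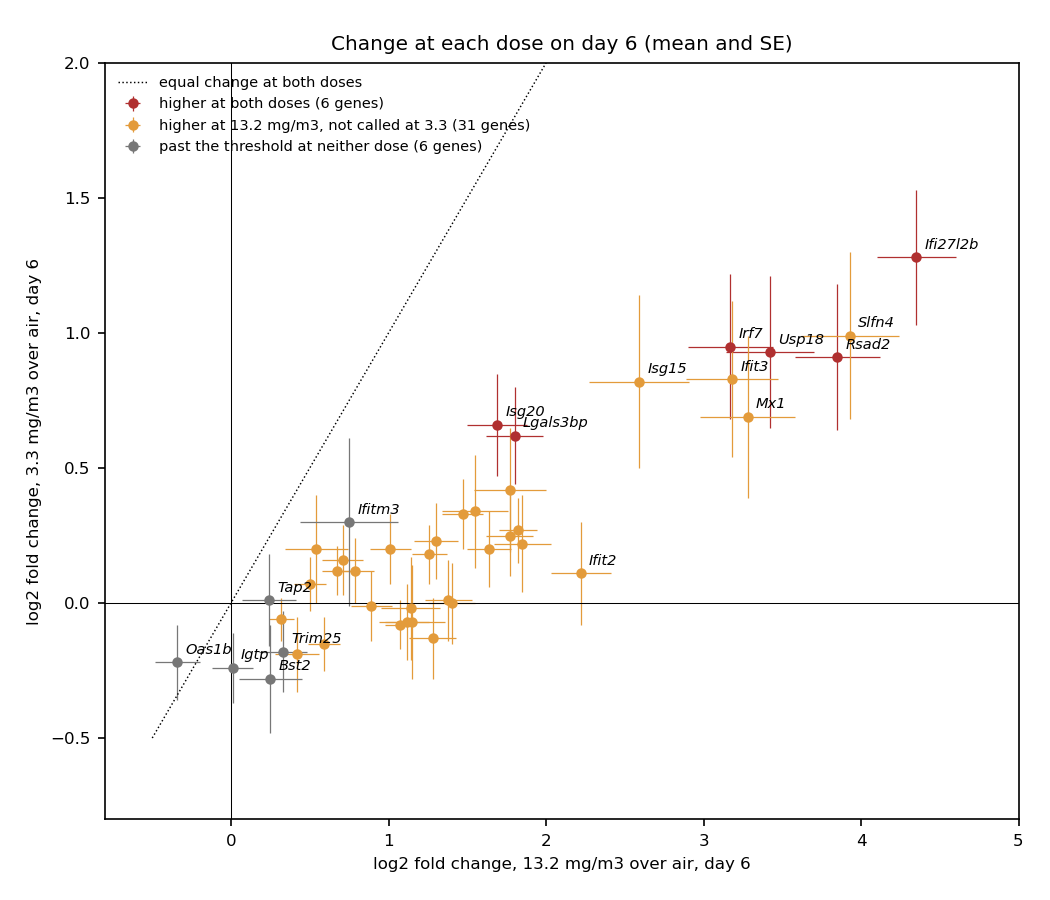
Log2 fold change ± SE of the 43 members at 13.2 mg/m3 (horizontal) and 3.3 mg/m3 (vertical) over the same 5 air rats on day 6, coloured by the calls at each dose, with a dotted line of equal change. The 6 genes called at both doses reach 0.62 to 1.28 at the low dose, and Ifit2 lies near 0 there in spite of 2.22 at the high dose.

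On day 28 the rise was no longer detected. At the high dose 0 members were higher and 0 lower than in air rats, with a median of -0.18, against 0.076% higher and 0.109% lower over all genes. At the low dose 0 were higher and 0 lower, with a median of -0.16, against 0% higher and 0.0109% lower over all genes. The difference between the high dose effect of day 6 and that of day 28 was itself tested: it was positive for 37 members and negative for 0, with a median of 1.41, against 11.2% and 5.49% of all genes. These 37 were not all the same genes as the 37 raised over air on day 6. Bst2, Trim25 and Tap2 passed for the difference but not over air on day 6, and Irf8, Nmi and Dtx3l did the reverse. The call of Bst2 for the difference was lost in 15 of 31 recomputations. Ifi27l2b had an effect larger by 4.77 ± 0.36 on day 6, Rsad2 by 4.69 ± 0.39, Slfn4 by 4.27 ± 0.43 and Usp18 by 3.47 ± 0.39 (adjusted p = 1.9e-10, 1.09e-09, 3.72e-08 and 2.28e-07). For the low dose the difference passed for 2 members, Rsad2 (1.68 ± 0.39, adjusted p = 0.0147) and Ifi27l2b (1.49 ± 0.36, adjusted p = 0.0192), and for 0 in the opposite direction, against 1.66% and 0.31% of all genes. On average Rsad2 lay below the air rats of day 28 at both doses. Its differences therefore exceed its day 6 changes of 0.91 at the low and 3.85 at the high dose.

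On day 28 many members were below the air rats by an amount that did not pass the adjusted test. At the high dose 14 of the 43 were lower and 1, Isg20, was higher at an unadjusted p under 0.05, where 9.26% of all genes were lower and 5.81% higher. At the low dose 11 were lower and 0 higher, where 3.29% of all genes were lower and 2.66% higher. Both doses share their 5 air rats, so the counts are not independent. Every high dose rat lay below every air rat for 5 members, Rsad2, Cmpk2, Tap2, Trim25 and Ifi27 (0.809% of all genes), and every low dose rat for 2, Ifit2 and Cmpk2 (0.32% of all genes). The reverse, with exposed rats entirely above the air rats, was the case for 0 members (0.684% of all genes at the high and 0.342% at the low dose). On day 28 Rsad2 read 4.01, 3.75, 3.71, 3.92 and 3.43 in air rats, 3.49, 2.57, 3.04, 3.01 and 2.84 in low dose rats and 3.37, 2.34, 2.99, 3.25 and 2.64 in high dose rats. Cmpk2 read 3.11, 3.20, 2.91, 3.03 and 2.93 in air rats, 2.83, 2.47, 2.73, 2.57 and 2.65 in low dose rats and 2.79, 2.08, 2.64, 2.61 and 2.25 in high dose rats. The air rats are the high values in both genes, apart from low dose rat 52, which reaches into their range for Rsad2, and the exposed rats of both doses overlap each other. The log2 changes at the high dose were -0.85 ± 0.27, adjusted p = 0.188 for Rsad2, -0.56 ± 0.15, adjusted p = 0.118 for Cmpk2 and -0.60 ± 0.17, adjusted p = 0.126 for Tap2.

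The air rats of day 28 were also compared with those of day 6, and the share of members called lay near that over all genes. At an unadjusted p under 0.05, 12 members were higher and 1 was lower, where 14% of all genes were higher and 10.2% lower. Over all genes 1.86% were higher and 1.09% lower in air rats of day 28 than of day 6, and among the members 1 was higher, Tap2 (0.68 ± 0.17, adjusted p = 0.0243), and 0 were lower. The call of Tap2 was lost in 6 of 21 recomputations. Rsad2 (0.94 ± 0.27, adjusted p = 0.0564), Cmpk2 (0.53 ± 0.15, adjusted p = 0.0515) and Trim25 (0.50 ± 0.15, adjusted p = 0.0601) came close to the threshold in the same direction. Rsad2 averaged 2.83 ± 0.25 (SD, n = 5) in air rats of day 6, 3.77 ± 0.22 in air rats of day 28 and 2.92 ± 0.43 in high dose rats of day 28. Cmpk2 averaged 2.51 ± 0.14, 3.04 ± 0.12 and 2.47 ± 0.30 in the same groups. The high dose means of day 28 thus lay nearer to the air rats of day 6 than to those of their own day. Of the neutrophil markers 2 of 6, S100a8 and S100a9, were also higher in air rats of day 28, and the mean of these markers was 0.49 to 0.80 on day 6 and 1.05 to 1.48 on day 28. Their part in the members' difference was not tested.

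Rats of day 28 did not all behave alike. Rat 52 at the low dose had the highest value of its group for 27 members, with a median of 0.12 above the air mean where the other 4 had -0.30 to -0.19. Rat 82 at the high dose had the highest for 25, with a median of 0.02 where the other 4 had -0.38 to -0.19. Isg15 read 2.52, 3.08, 2.98, 2.78 and 2.58 in air rats, 3.51, 2.01, 1.72, 2.12 and 2.74 in low dose rats and 2.10, 2.40, 3.31, 2.23 and 1.34 in high dose rats. Usp18 read -0.39, -0.15, 0.13, -0.01 and -0.27 in air rats, 1.00, -0.61, -0.69, -0.59 and -0.22 in low dose rats and -0.59, 0.21, 0.66, -0.41 and -0.83 in high dose rats. In each gene rats 52 and 82 were the highest of their groups and stood above every air rat. Without rat 82 the members' median at the high dose was -0.26, with 40 of 43 below 0, and without rat 52 the median at the low dose was -0.25, and 0 members passed in either case.

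**Figure D5:**
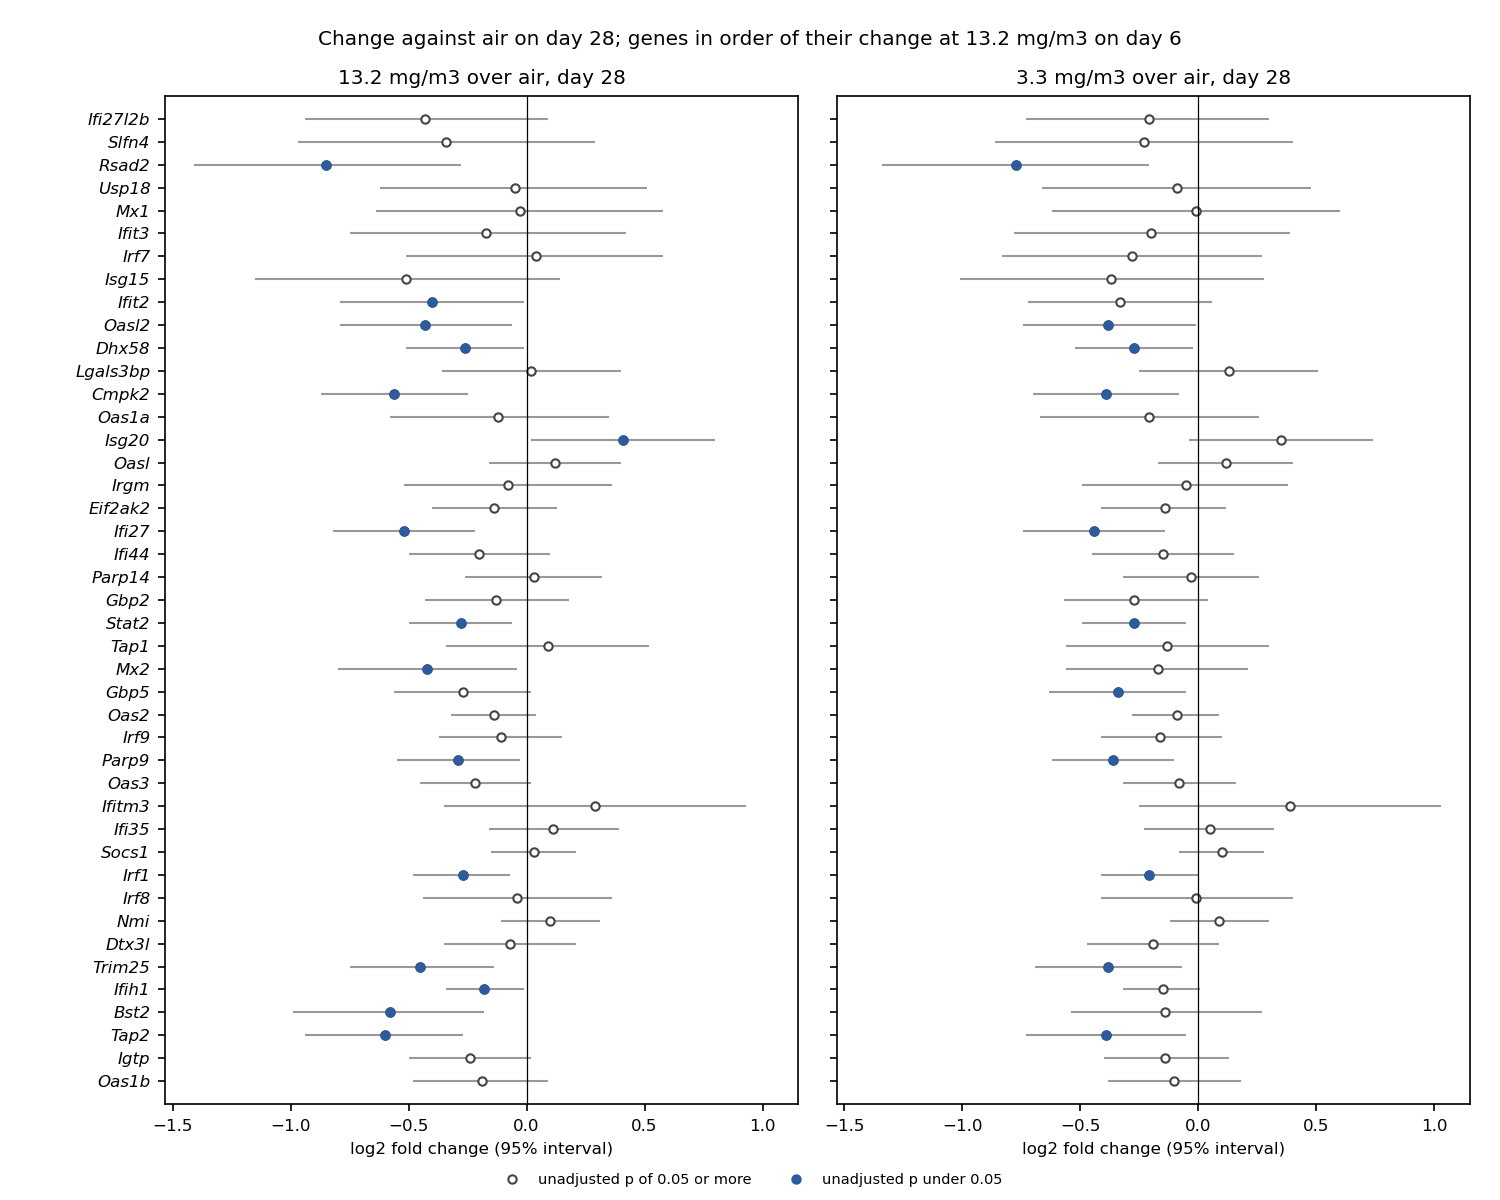
Log2 fold change over air with its 95% interval on day 28 for the 43 members at 13.2 mg/m3 (left) and 3.3 mg/m3 (right), in the order of their day 6 change at the high dose, filled where the unadjusted p is under 0.05. Most points lie left of 0, led by Rsad2 at -0.85 and -0.77, and 0 pass the adjusted test.

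The rest of the pathway was followed through lists of its parts. Of 13 interferon genes listed 1 was measured, Ifna4, at -0.10 ± 0.09, adjusted p = 0.386 in high dose rats of day 6. Among the receptor chains and kinases 4 of 6 measured rose, where 21% of all genes were higher: Ifngr2 (0.99 ± 0.11), Il10rb (0.69 ± 0.13), Jak2 (0.44 ± 0.11) and Ifnar1 (0.36 ± 0.13), a chain of the type I receptor, with adjusted p = 2.06e-08, 0.000102, 0.00197 and 0.0278. Of the signal carriers and regulators reported here, Irf5 (1.79 ± 0.16), a factor of macrophages, the phosphatase Ptpn2 (0.57 ± 0.09) and Stat3 (0.35 ± 0.11) rose, at adjusted p = 6.26e-10, 7.41e-06 and 0.0125, while Irf3, which starts interferon transcription, was -0.36 ± 0.17, adjusted p = 0.0876. Of 10 nucleic acid sensors and adaptors 7 rose and 0 fell (21% and 15.5% of all genes), led by Sting1 (1.80 ± 0.12, adjusted p = 1.55e-12), the adaptor of DNA sensing, and the DNA-degrading exonuclease Trex1 (1.41 ± 0.19, adjusted p = 7.66e-07). Sting1, the kinase Ikbke and Irf5 also rose at the low dose (0.93, adjusted p = 2.37e-06, 0.78, adjusted p = 0.0013 and 0.84, adjusted p = 0.000654).

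Several markers of leukocytes were higher with the dose as well. Of 12 macrophage and monocyte markers 9 were higher in high dose than in air rats on day 6, as were 5 of 6 measured neutrophil markers, 9 of 10 T cell markers, 2 of 7 NK and cytotoxic markers and 1 of 4 B cell markers, and 0 of these were lower. Over all genes 21% were higher and 15.5% lower, so the NK and B cell counts lie near that share. Among 4 measured plasmacytoid dendritic cell markers 0 rose and 1, Tcf4, fell (-0.93 ± 0.18, adjusted p = 0.000224). The mean log2 ratio of the macrophage markers was 0.91 to 1.08 in air rats, 1.10 to 1.73 in low dose rats and 1.41 to 2.46 in high dose rats, and that of T cell markers -0.44 to -0.21, -0.29 to 0.22 and 0.07 to 0.58. That of the neutrophil markers was 0.49 to 0.80 in air rats, 1.95 to 2.68 in low dose rats and 2.27 to 2.65 in high dose rats. At the low dose 5 of 6 neutrophil, 2 of 12 macrophage, 1 of 10 T cell, 0 of 7 NK and 0 of 4 B cell markers rose (4.97% of all genes). Between the doses 0 of 6 neutrophil, 3 of 12 macrophage, 2 of 10 T cell, 2 of 7 NK and 1 of 4 B cell markers were higher (8.02% of all genes). The macrophage marker Siglec1, itself known to be induced by interferon, rose by 3.67 over air and by 3.0 between the doses (adjusted p = 3.66e-10 and 1.57e-07). The part of these cells in the members' change was not tested.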

How the data were processed

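Lung RNA labelled with Cy5 and a common reference labelled with Cy3 were scanned by the submitters with Agilent Feature Extraction (version 11.0.1.1 per the file headers). The deposited intensity values of each spot (median signal and background) were corrected with normexp (offset 50) and normalized by loess within each array in limma 3.58.1 (R 4.3.3). Control spots had weight 0 and outlier-flagged spots were dropped. The authors' deposited log2 ratios, whose normalization method was not given, served as an alternative. They followed Cy5 over Cy3 without background correction (correlation 0.997 to 1 per array), with medians of -0.0314 to -0.00539. Of 30367 probes 20839 were well above background in Cy5 on at least 5 of 30 arrays. Probes were named by accession (18005 probes, 15168 symbols), with 1 probe per gene, that of the highest mean signal. This left 18410 genes, of which 11322 had a symbol. The 6 groups were fitted together, and 8 comparisons were tested at an adjusted p under 0.05. The median SE was 0.115, and the number of rats limits the precision. Samples were checked to be separate rats by their labels.

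The members, the lists and the 15 genes shown rat by rat, chosen by role, were picked with earlier results of these data known. Every measured member is named, with values for each that did not pass at the high dose on day 6. Promoters were RefSeq's (GRCr8), and the arrays' own annotation uses another assembly. The fitting was tested on simulated data. Alternatives changed the background correction, normalization, filter, probe choice, slide block, variance model and groups in the fit, and left out each rat. Some genes of the list of signal carriers and regulators are not reported here, so no count is given for that list.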

Additional observations from a re-analysis of the deposited data

Results flagged for a closer look

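For 8 of 96 combinations of a gene (or the members' median) and a group, 1 rat lay farther from its group than Dixon's 95% value (0.71 for 5 rats) allows, and chance gives about 1 in 20. On day 6 low dose rat 50 was high for Ifi27l2b, at 2.72 where the others had 0.83 to 1.20, and for Gbp2, at 2.16 where the others had 1.55 to 1.67. High dose rat 79 was low for Socs1, at 0.32 against 0.63 to 0.67. On day 28 low dose rat 52 was high for Usp18, at 1.00 against -0.69 to -0.22, and for the median of the members, at 0.12 against -0.30 to -0.19. High dose rat 82 was high for Irf9, at 1.74 against 0.89 to 1.09. For Stat2, air rat 8 was low, at 0.95 against 1.28 to 1.36, and low dose rat 54 was high, at 1.30 against 0.86 to 0.95.

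Over all genes the difference between the high dose effects of day 6 and day 28 was positive in 11.2% and negative in 5.49%. The high dose effect differed by that test for 37 members, and the signed difference was positive in each. For Tap2, Bst2 and Trim25 the day 28 effect was negative and larger in size, at -256%, -238% and -135% of the day 6 effect. Among the panel the high dose effect was larger on day 6 by 4.77 for Ifi27l2b, 4.69 for Rsad2, 4.27 for Slfn4, 3.47 for Usp18, 3.35 for Ifit3, 3.32 for Mx1, 3.13 for Irf7 and 3.10 for Isg15. It was larger by 1.88 for Oas1a, 1.54 for Stat2, 1.41 for Gbp2, 1.12 for Irf9, 1.06 for Tap1, 0.86 for Irf1 and 0.64 for Socs1. The low dose effect differed for 2 members, Rsad2 by 1.68 and Ifi27l2b by 1.49, where 1.66% of all genes had a positive and 0.31% a negative difference.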

How the results depend on the processing

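The 126 results on single members were recomputed 3024 times in all. Of these, 2898 kept their direction and their side of the threshold, 108 no longer passed, 10 newly passed and 8 changed sign, all of the last for Igtp at the high dose on day 6. The new passes were also at the high dose on day 6, with 4 for Oas1b, 4 for Ifitm3, 1 for Trim25 and 1 for Igtp. Ifitm3 passed as raised, at adjusted p down to 0.0168. Igtp reached up to 0.72, at adjusted p down to 2.39e-05, with the mean of its probes, which read 0.01 and 1.43. Igtp came to -0.05 with Cy5 alone, -0.09 with the authors' deposited log2 ratios and -0.01 with slide as a block, and to between -0.03 and 0.05 with single rats left out, at or below 0 without high dose rats 77, 78 or 79 or air rats 2 or 4. These sign changes lie around a main value of 0.01, and their cause was not tested. Members raised at the high dose on day 6 numbered 33 to 38 over the alternatives and 35 to 37 with single rats left out, and members lowered there numbered 1 with the authors' log2 ratios, with slide as a block and with the compared groups alone, and 0 to 1 with rats left out. Raised at the low dose were 1 to 7 over the alternatives, among them 1 with median centring and 3 with no filter on dim probes, and 1 to 7 with rats left out. Between doses the count was 32 to 38 over the alternatives, lowest when a 1.5-fold change was required, and 36 to 37 with rats left out. For the difference of high dose effects between days it was 33 to 38, lowest with median centring and when all 30 arrays had to be above background, and 36 to 38 with rats left out. Changes at the high dose on day 6 also moved by over 1.5 times for Isg15 (3.19) and Ifi27l2b (3.42) with Cy5 alone and for Ifit3 (2.57) with Agilent's processed signals, in the same direction and past the threshold. For the low dose that difference passed for 0 with median centring and for 2 to 5 with rats left out. Members higher in air rats of day 28 than of day 6 numbered 2 with Agilent's processed signals, 0 with median centring, 4 with Cy5 alone, 3 when all 30 arrays had to be above background and 8 with the compared groups alone, and 0 to 7 with rats left out. On day 28 the counts against air were 0 in each alternative run.

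Median centring moved the median of all genes to -0.11 between the air groups, to 0.11 at the low dose on day 28 and to -0.15 for the difference of low dose effects. The share of calls over all genes that were higher was 74% at the low dose on day 6 (62.5% with Cy5 alone), 67.5% between the doses (53.8% with the authors' ratios), 63.1% between the air groups (23.6% with median centring), 67.2% for the difference of high dose effects (50% with the authors' ratios) and 84.3% for that of low dose effects (68.6% with median centring). No paired analysis was possible because the rat numbers are unique and groups share none.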
